A study of Mus musculus with 2 samples.

Results

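The genes described here are the MHC genes of chromosome 17 whose symbols start with H2-, the cluster of antigen-presentation genes that lies close to Ppard, the gene encoding PPARβ. The rule used their names and position and no expression value, and took every symbol of the authors' table on chromosome 17 that starts with H2- and whose estimate had not failed. This gave 40 of the 33224 gene symbols in the table. Hepatic RNA of male C57BL/6 mice was sequenced 48 hr after partial hepatectomy (PH), as 1 library of wild-type (WT) and 1 of PPARβ-null (KO) liver. The sample labels give an age of 4 months for both libraries and a range of 3 to 5 months for the mice, while the design text of the series gives 3 months. Both genotypes had the same operation, which, like its time, is named in the study's text and not in the sample labels. How the null allele was made, and whether a library held RNA of 1 mouse or of several, is not given in the sources used here. There were no replicates, so no value carries an error between mice, no test between genotypes was run, and every difference is one between these libraries.

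MHC class I molecules consist of a heavy chain, bound to beta-2 microglobulin, that holds a short peptide at the cell surface. The classical heavy chains, named class Ia, show peptides from inside the cell to CD8 T cells and are made by nearly all cells, hepatocytes included. The heavy chains of the Qa, T and M regions, named class Ib, vary less between individuals, and many have special tasks or tissues. MHC class II molecules pair an alpha with a beta chain, show peptides from taken-up proteins to CD4 T cells, and are made mainly by dendritic cells, B cells and macrophages. The promoters of class I genes usually hold an enhancer with a binding site of NF-κB and an interferon-stimulated response element (ISRE), followed by an SXY module bound by the RFX, CREB and NF-Y factors together with the coactivator Nlrc5.

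The levels are FPKM, the fragments per kilobase of exon that the authors estimated for each locus and scaled to the number of mapped fragments. In mm9, the build of the files, Ppard lay on chromosome 17 from 28369699 to 28438414, and the 40 genes began between 5.71 and 9.25 Mb beyond its start. The FPKM of the Ppard locus was 2.67 in WT and 2.42 in KO, which did not tell the libraries apart. The FPKM of a locus adds up all of its exons, and single exons were not analysed here. The low values of single-exon genes piled up near the worth of 1 fragment. From 63 such values in WT and 59 in KO, 1 FPKM on a transcript of 1 kb was estimated to rest on about 52.7 fragments in WT and 55.9 in KO. The 95% intervals of ratios given here are exact binomial intervals on fragments estimated in this way, and they cover counting error only. A gene was taken as measured where its FPKM averaged 0.1 or more over both libraries. Of all 15727 measured genes, 74.8% were lower in KO, and their median log2 KO/WT was -0.25, computed on FPKM + 0.1. Ratios of the H2- genes are read against this shift.

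The promoters of 6 class I genes are shown because these genes stand next to each other in the cluster or share a role and differed in their ratio. The bases are the 250 before the transcription start, from RefSeq on GRCm38.p6, written 5′ to 3′ on the strand of the gene. H2-Gs10 is listed there as H2-Q4. Capitals mark the sequence GGGATTCC of the NF-κB site, the bases TGACG, the core of an X2 box, and CCAAT, that of a Y box, each searched on both strands, so that CCAAT also appears as ATTGG.
H2-Q7 (chr17:35438905-35439154, plus strand): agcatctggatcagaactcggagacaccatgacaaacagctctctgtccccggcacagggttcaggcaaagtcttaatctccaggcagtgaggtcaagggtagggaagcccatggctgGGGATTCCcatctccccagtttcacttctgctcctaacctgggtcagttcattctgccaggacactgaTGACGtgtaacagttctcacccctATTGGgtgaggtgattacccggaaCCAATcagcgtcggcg
H2-Q6 (chr17:35424600-35424849, plus strand): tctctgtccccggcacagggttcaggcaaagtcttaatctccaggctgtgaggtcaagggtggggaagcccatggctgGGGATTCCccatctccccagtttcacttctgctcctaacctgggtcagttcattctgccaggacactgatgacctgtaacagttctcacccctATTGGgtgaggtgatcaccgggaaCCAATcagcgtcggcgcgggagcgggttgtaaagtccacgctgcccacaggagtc
H2-Gs10 (chr17:35379367-35379616, plus strand): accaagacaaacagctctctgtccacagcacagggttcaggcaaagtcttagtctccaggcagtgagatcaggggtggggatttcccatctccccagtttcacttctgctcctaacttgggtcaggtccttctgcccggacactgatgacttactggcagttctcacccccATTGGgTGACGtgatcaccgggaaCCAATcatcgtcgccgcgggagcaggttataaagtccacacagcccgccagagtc
H2-Q10 (chr17:35469839-35470088, plus strand): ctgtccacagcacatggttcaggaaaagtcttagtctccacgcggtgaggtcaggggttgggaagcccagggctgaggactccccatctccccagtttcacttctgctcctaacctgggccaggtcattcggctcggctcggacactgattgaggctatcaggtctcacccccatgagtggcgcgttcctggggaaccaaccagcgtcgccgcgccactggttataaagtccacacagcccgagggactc
H2-K1 (chr17:34000348-34000597, minus strand): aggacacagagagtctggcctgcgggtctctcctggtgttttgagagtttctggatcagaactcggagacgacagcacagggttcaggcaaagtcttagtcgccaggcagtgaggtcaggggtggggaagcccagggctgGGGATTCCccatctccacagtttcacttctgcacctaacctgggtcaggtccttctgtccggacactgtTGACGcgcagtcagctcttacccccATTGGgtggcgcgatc
H2-D1 (chr17:35262844-35263093, plus strand): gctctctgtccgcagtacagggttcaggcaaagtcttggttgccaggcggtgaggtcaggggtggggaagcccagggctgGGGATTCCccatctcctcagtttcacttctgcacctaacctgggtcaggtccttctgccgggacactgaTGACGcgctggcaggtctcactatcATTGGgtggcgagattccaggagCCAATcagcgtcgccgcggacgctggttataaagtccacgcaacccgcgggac
H2-Q7, H2-Q6, H2-K1 and H2-D1 held GGGATTCC, which occurred in 0.889% of 32851 RefSeq promoters of the same length. H2-Gs10 and H2-Q10 did not hold these exact letters. H2-Gs10 held ggggatttccc at the like place, so a search for GGGATTCC alone cannot say that it lacks an NF-κB site. CCAAT occurred in 33.8% of all promoters and TGACG in 17.8%. The window of H2-Q10 held neither, and that of H2-Q6 held CCAAT but not TGACG. In H2-Q7, H2-K1 and H2-D1 the TGACG stood before the ATTGG, whereas in H2-Gs10 it followed the ATTGG. In H2-Gs10 it is therefore not at the place of the X2 box of the other genes. At that place H2-Q6 and H2-Gs10 held gacactgatgac, near the gacactgaTGACG of H2-Q7 and H2-D1. A search for TGACG alone therefore cannot say that H2-Q6 or H2-Gs10 lacks an X2 box. The ISRE was searched as GAAANNGAAA, which 2.98% of promoters held, and none of the 6 windows did, while those of H2-T22 and H2-T23 did. All 6 windows held agtttcacttctgc, letters that come near this pattern on the other strand without matching it. The search therefore cannot say whether these promoters lack an ISRE. The windows of H2-Q7 and H2-Q6 matched at 97.6% of 210 aligned bases, and those of H2-Q7 and H2-K1 at 88.2% of 203. A match is a description of letters and not of a bound factor. Of the 40 genes, 31 had a RefSeq promoter in the table used, and of several starts of a gene the first listed is shown.

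In regenerating livers the class I genes of the Qa region had lower levels in the KO library, whereas the classical class I genes H2-K1 and H2-D1 had close to the same level in both. All 6 genes of the Qa region that had a row in the authors' table were lower in KO, beside 74.8% of all measured genes. Their median log2 KO/WT was -1.13, beside -0.25 for all genes. H2-Q1, H2-Q3, H2-Q5 and H2-Q9 had no row. H2-Q7, at 27.6 FPKM in WT against 7.0 in KO, was 3.95-fold lower in KO (95% counting interval 3.59 to 4.34), the largest fold among the H2- genes that averaged 1 FPKM or more. H2-K1, in contrast, stood at 295 FPKM in WT against 293 in KO. Of the 40 genes, 24 were measured, and 4 of these were more than 2-fold lower in KO, namely H2-Q7, H2-Q8, H2-Q6 and H2-Bl. This is 16.7%, beside 9.94% of all measured genes. None was more than 2-fold higher, beside 2.08% of all genes. With a limit of 1.5-fold, 7 of the 24 were lower in KO (29.2%, beside 22.9% of all genes) and 0 were higher (beside 4.93%). Over the 24 genes the median log2 KO/WT was -0.38, and 79.2% of them were lower in KO, beside -0.25 and 74.8% for all measured genes. Of the 4 genes past 2-fold, 3 lay in the Qa region and H2-Bl in the T region.

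**Figure D1:**
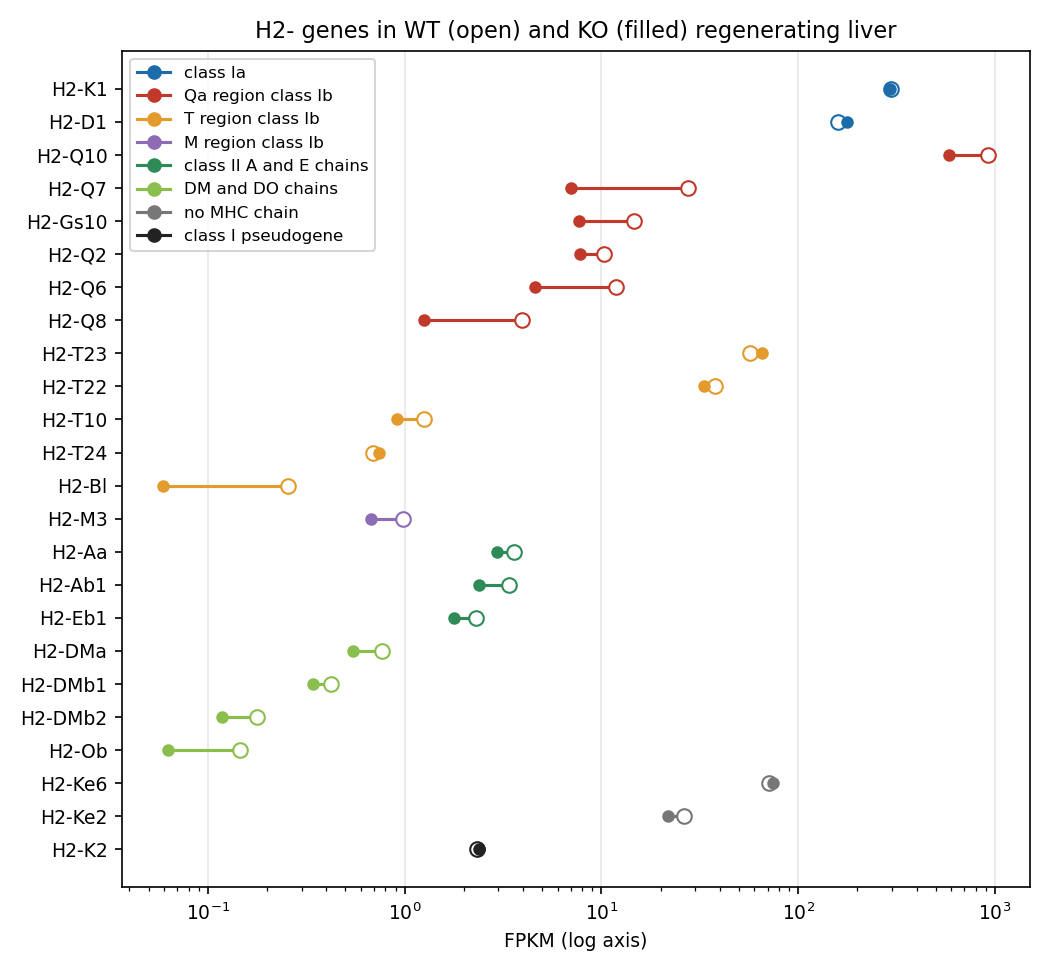
FPKM of the 24 measured H2- genes in the WT library (open points) and the KO library (filled points), on a log axis, coloured by class of molecule. The Qa region genes all lie further left in KO, from 27.6 to 7.0 for H2-Q7, while H2-K1 has 295 in WT and 293 in KO.

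The classical class I heavy chains were among the abundant transcripts of these livers. H2-K1 (chromosome 17, 34132958 to 34137278, minus strand) ranked 246 by mean level among the 11723 genes that averaged 1 FPKM or more. With 295 FPKM in WT and 293 in KO, its WT/KO ratio was 1.01 (95% counting interval 0.993 to 1.03). H2-D1 (35398896 to 35404669, plus strand) stood at 160 FPKM in WT against 178 in KO, so it was 1.11-fold higher in KO (95% counting interval 1.09 to 1.13). Together they summed to 455 FPKM in WT against 470 in KO. Since most genes were lower in KO, 73.7% of all measured genes had a lower log2 KO/WT than H2-K1, and 84.5% a lower one than H2-D1. Centring the ratios on the median of expressed genes moved H2-K1 from -0.01 to 0.22 on the log2 scale. H2-K2, a class I pseudogene beside H2-K1, stood at 2.34 FPKM in WT and 2.38 in KO.

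The Qa region starts beyond H2-D1, and the ratio differed from gene to gene along it. Among the genes with a row H2-Q2 came first, at 10.3 FPKM in WT and 7.75 in KO, 1.33-fold lower in KO. Its value is the sum of 2 rows that carry the symbol, nearly all of it from the first. H2-Gs10 (35513966 to 35522526) followed at 14.6 FPKM in WT against 7.72 in KO, 1.89-fold lower in KO (95% counting interval 1.69 to 2.12), and its row gave a span shared with the row of Gm11131. The next 3 genes with a row, H2-Q8, H2-Q6 and H2-Q7, belong to the group that encodes the Qa-2 antigens. Many of these antigens are held in the membrane by a lipid anchor.

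H2-Q8 (35531061 to 35534745), annotated in GENCODE vM1 as a processed transcript, stood at 3.97 FPKM in WT against 1.25 in KO, 3.17-fold lower in KO (95% counting interval 2.42 to 4.15). H2-Q6 (35561167 to 35566998) stood at 11.9 against 4.58, which is 2.60-fold lower in KO (95% counting interval 2.25 to 3.00). H2-Q7 (35575987 to 35580707), the gene with the largest fold, rested on about 2065 fragments in WT and 555 in KO. For each of these 3 genes the counting interval of the ratio lay above 2, and the spread between mice was not measured. Only 2.85% of all genes had a lower log2 KO/WT than H2-Q7, 4.37% than H2-Q8 and 5.84% than H2-Q6. H2-Q6, H2-Q7, H2-Q8 and H2-Gs10 summed to 58.1 FPKM in WT against 20.6 in KO, which is 3.75% of all class I heavy-chain FPKM in WT and 1.74% in KO. Relative to H2-K1 of the same library, the FPKM of H2-Q7 was 0.0935 in WT and 0.0239 in KO, a comparison within each library that no scaling of the libraries changes.

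H2-Q10 (35605760 to 35613986), a class Ib molecule secreted by the liver, was the most abundant of the 40 genes and ranked 99 among the 11723 genes. At 928 FPKM in WT against 582 in KO, it was 1.60-fold lower in KO (95% counting interval 1.57 to 1.62). Its promoter window, shown above, was the one of the 6 without any of the letters searched. H2-Q10 made up 59.9% of class I heavy-chain FPKM in WT and 49.2% in KO, while H2-K1 made up 19.1% in WT and 24.8% in KO. All class I heavy chains together summed to 1550 FPKM in WT against 1181 in KO. Without H2-Q10 the sum was 622 in WT and 600 in KO, so the difference in the sum lay mostly in this gene.

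The class Ib genes of the T region went both ways. H2-T23, which encodes Qa-1, a ligand of NKG2 receptors of NK cells, stood at 56.9 FPKM in WT against 65.8 in KO, 1.16-fold higher in KO (95% counting interval 1.11 to 1.20). It had the highest log2 KO/WT of the 24 genes, above that of 87.3% of all genes. H2-T22, a ligand of some γδ T cell receptors, had 37.8 in WT and 33.2 in KO, and H2-T10, its close relative, had 1.26 and 0.916. H2-T24 had 0.690 in WT and 0.741 in KO. H2-Bl, annotated as a polymorphic pseudogene, stood at 0.255 in WT against 0.0594 in KO, which rests on about 15 and 4 fragments. The 95% counting interval of its WT/KO ratio ran from 1.27 to 16.5, and with a pseudocount of 1 FPKM, or against the median of expressed genes, it was not past 2-fold. Over these 5 genes the median log2 KO/WT was -0.19, and it was 0.01 with equal upper quartiles and 0.05 against the median of expressed genes. H2-T3, which encodes the TL antigen of the intestine, was listed at 0 in both libraries.

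In the M region, H2-M3, which presents N-formylated peptides, stood at 0.987 FPKM in WT against 0.675 in KO, 1.46-fold lower in KO (95% counting interval 1.02 to 2.13). It was the only measured one of 13 genes of this region. H2-M1, H2-M9, H2-M11 and the H2-M10 genes are known from sensory neurons of the vomeronasal organ, and all but H2-M10.1 were listed at 0 in both libraries. Over the whole cluster 10 genes were listed at 0 in both libraries, and 6 more averaged below 0.1 FPKM, with a highest value of 0.124.

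**Figure D2:**
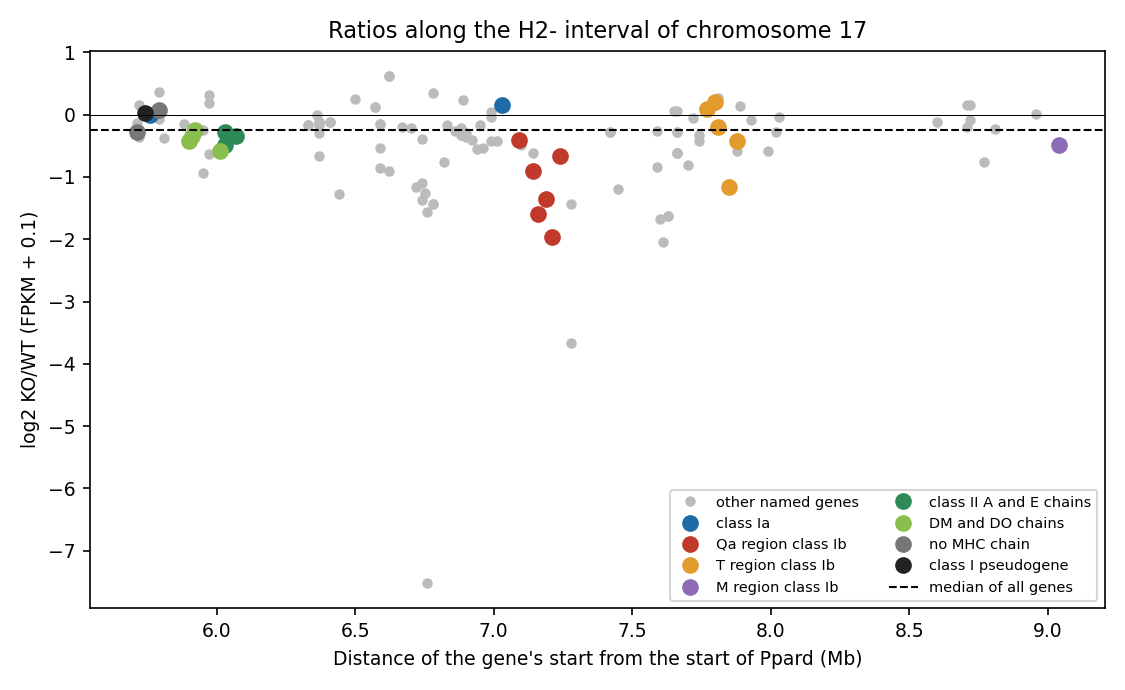
log2 KO/WT on FPKM + 0.1 against the distance of each gene's start from the start of Ppard in Mb, for the H2- genes (coloured) and the other named genes between them (grey) that averaged 0.1 FPKM or more. The Qa region genes between H2-D1 and the T region reach -1.97, while H2-D1 on one side has 0.15 and H2-T23 on the other 0.21.

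The MHC class II genes had low levels, and the measured ones were slightly lower in KO. H2-Aa, the alpha chain of the A molecule, stood at 3.61 FPKM in WT against 2.95 in KO, with a 95% counting interval of the WT/KO ratio from 0.955 to 1.58. H2-Ab1, its beta chain, stood at 3.39 against 2.38, which is 1.42-fold lower in KO (95% counting interval 1.15 to 1.76). The rows of both genes gave the same span, from 34400185 to 34424716, their annotated ends overlap on opposite strands, and the library kit did not mark strand, so reads of the overlap can belong to either. H2-Eb1, the beta chain of the E molecule, had 2.31 in WT and 1.79 in KO. H2-Ea-ps, the inactive E alpha gene of C57BL/6 mice, was listed at 0 in both libraries.

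H2-DMa and H2-DMb1 encode DM, which helps class II molecules exchange their peptide, and H2-Oa and H2-Ob encode DO, which restrains DM. H2-DMa stood at 0.771 FPKM in WT against 0.545 in KO, and H2-DMb1 had 0.424 and 0.342. H2-DMb2, a second DM beta gene, had 0.178 in WT and 0.118 in KO, and H2-Ob had 0.145 and 0.0630. The counting intervals of the ratios of these 4 genes all included 1, so a difference was not detectable at this depth. The 7 measured class II, DM and DO genes were all lower in KO, beside 74.8% of all measured genes. Their median log2 KO/WT was -0.35, beside -0.25 for all genes. None was past 2-fold on FPKM + 0.1, while H2-Ob was 2.30-fold lower in KO on the FPKM themselves and was past 2-fold with a pseudocount of 0.01. Against the median of expressed genes, their median was -0.12.

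The cell types that make class II were checked by markers, since fewer cells of a type and less RNA per cell cannot be told apart in a bulk library. Of 10 Kupffer cell and macrophage markers 9 (90.0%) were lower in KO, beside 74.8% of all measured genes. They summed to 99.9 FPKM in WT against 65.2 in KO. Their median log2 KO/WT was -0.73, beside -0.25 for all genes. Csf1r was past 2-fold, at 3.98 FPKM in WT against 1.64 in KO, and Marco (6.58 and 7.37) was the one higher in KO. Markers of dendritic cells, of which 3 of 8 were measured, summed to 4.38 against 3.48, most of it from Clec9a (3.08 and 2.30), whose row is joint with Clec1b. The B cell list had 2 of 8 genes measured, with sums of 0.292 and 0.156, and Ms4a1, which encodes CD20, stood at 0.0235 in WT and 0.020 in KO. Both values of Ms4a1 are close to the worth of 1 fragment on a transcript of 1 kb. Of 11 T and NK cell markers 3 were measured, with sums of 0.645 in WT and 0.366 in KO. Neutrophil markers, 4 of 8 measured, summed to 13.2 and 7.06, and Ly6g, Mpo and Camp were listed at 0. The 8 endothelial markers summed to 55.8 in WT and 39.2 in KO, of which Clec4g, in a joint row, gave 21.8 and 18.9. Of the 8, 7 were lower in KO, with Lyve1 past 2-fold (2.72 and 1.17), while Tek had 1.80 and 1.81. The part of these cells in the levels of the class II or Qa region genes was not tested. Hepatocyte markers marked the tissue as liver, with sums of 23571 FPKM in WT and 27169 in KO over 7 of 8 genes, Alb being among the failed estimates. Of these, 5 were higher and 2 lower in KO, among them Fgb (2698 in WT and 4534 in KO) and Cps1 (1597 and 743), which was past 2-fold.

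Of the proteins that drive MHC transcription, none was past 2-fold. The 10 measured regulators had a median log2 KO/WT of -0.28, beside -0.25 for all genes. The lowest of them, Rfxank, a gene of the RFX factors, stood at 4.10 FPKM in WT and 2.38 in KO (log2 KO/WT -0.76). Nfyb, a subunit of NF-Y, stood at 15.5 FPKM in WT and 14.5 in KO, and Irf2, an interferon regulatory factor, at 16.7 and 12.0. Nlrc5, the class I coactivator, had 4.20 in WT and 4.18 in KO, and Ciita, the class II coactivator, had 0.0686 and 0.0744. Rfxank, Nlrc5 and Ciita were named after their values were seen.

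The genes that load class I molecules went both ways. None of 14 was past 2-fold, and 10 (71.4%, beside 74.8% of all genes) were lower and 4 higher in KO. Their median log2 KO/WT was -0.17, beside -0.25 for all genes. With equal upper quartiles the median was 0.03, and against the median of expressed genes 0.06. B2m, the light chain of every class I molecule, stood at 1008 FPKM in WT and 917 in KO. Calr, a chaperone of the loading complex, had 349 in WT and 503 in KO, and Psmb10, an immunoproteasome subunit, had 181 and 300 in a joint row with Ctrl, Lcat and Slc12a4, so its own level is not known. The immunoproteasome subunits with rows of their own, Psmb8 (10.0 in WT and 6.42 in KO) and Psmb9 (8.77 and 4.55), lie among the H2- genes and were lower in KO. They were named after their values were seen.

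All 7 genes of class II peptide supply were lower in KO, beside 74.8% of all measured genes. Their median log2 KO/WT was -0.51, beside -0.25 for all genes. Ifi30, a lysosomal thiol reductase, was just past 2-fold, at 14.3 FPKM in WT against 7.12 in KO. With a pseudocount of 1 FPKM, with equal upper quartiles or against the median of expressed genes it was not. The lysosomal proteases Ctsl (546 and 373), Ctsd (155 and 114, a joint row with 6330512M04Rik) and Ctsb (98.7 and 69.2) were the most abundant. Of 7 class I-like genes outside the cluster 1 was past 2-fold, Mr1, which presents vitamin B metabolites, with 1.72 in WT and 0.521 in KO, and with a pseudocount of 1 FPKM it was not. Azgp1 had 510 in WT and 558 in KO, Cd1d1, which presents lipids, 96.5 and 86.0, and Fcgrt, the neonatal Fc receptor, 40.8 and 53.3.

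Interferons raise many H2- genes. Of 14 measured interferon-gamma response genes, 8 (57.1%, beside 74.8% of all genes) were lower and 6 higher in KO. Their median log2 KO/WT was -0.15, beside -0.25 for all genes. The median turned to 0.32 among genes averaging 1 FPKM or more, to 0.03 with equal upper quartiles and to 0.09 against the median of expressed genes. With joint rows left out it was -0.26. Igtp and Irgm2 take their values from the same joint row, which counts for each of them. Cxcl10, a chemokine, was the one past 2-fold, at 1.94 FPKM in WT against 0.623 in KO. None was past it with a pseudocount of 1 FPKM, and 3 were with 0.01. The most abundant, the GTPase genes Iigp1 (49.3 in WT and 81.3 in KO), Irgm1 (18.1 and 20.2) and Igtp with Irgm2 (14.2 and 19.9, a joint row), were higher in KO. Of 14 measured type I interferon response genes 12 (85.7%) were lower in KO, with a median of -0.62. For all genes these values were 74.8% and -0.25. None of the 14 was past 2-fold on FPKM + 0.1. With a pseudocount of 0.01 FPKM 3 of them were, and with 1 FPKM the median was -0.32. Among the 3 most abundant, Stat2 was lower in KO, at 10.9 FPKM in WT against 8.66. Irf9 (12.3 and 13.2, a joint row with Rnf31) and Isg15 (4.23 and 5.30) were higher.

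**Figure D3:**
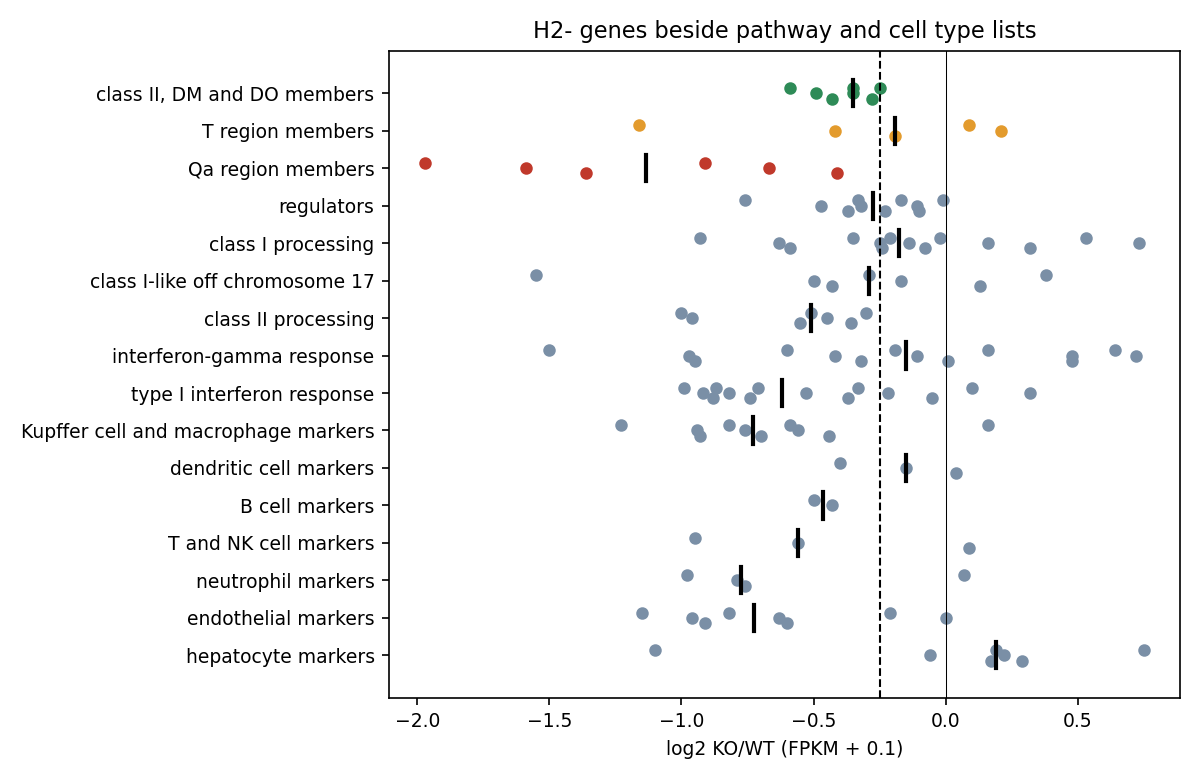
log2 KO/WT on FPKM + 0.1 of single measured genes (points), for 3 groups of H2- genes (coloured) and for pathway and cell type lists (grey-blue), with the median of each list as a black bar and that of all genes (-0.25) as a dashed line. The Qa region has the lowest median, -1.13, and the regulators lie near the dashed line with -0.28.

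The other genes of the interval were compared with the H2- genes as neighbours on the chromosome. Between the outermost H2- genes lay 175 other gene symbols, 104 of them measured. Of these, 16 (15.4%) were more than 2-fold lower in KO and 0 were more than 2-fold higher, beside 9.94% and 2.08% of all genes, and their median log2 KO/WT was -0.28. Adding 1 FPKM in place of 0.1 left 8 of them more than 2-fold lower. A joint row counts for each of its symbols. With joint rows left out, among fewer genes, 12 were more than 2-fold lower, and against the median of expressed genes 13 were. The largest folds among the genes that reached 1 FPKM in WT and in KO alike were those of Mdc1, a mediator of the DNA damage response (4.80 in WT and 1.09 in KO), Tubb5, a beta tubulin (90.5 and 28.2), and Nrm, a nuclear membrane protein (3.48 and 1.06, a joint row with 2310014H01Rik). Highest in KO were the complement genes C2 and Cfb, a joint row with 327 in WT and 504 in KO, Ring1 with 3.52 and 4.58, and Tap2, a peptide transporter subunit, with 5.77 and 7.23. D17H6S56E-5, named after its values were seen, stood at 97.8 FPKM in WT against 0.436 in KO, in a row that gave the same span as Vars. Within 10 Mb of Ppard on either side, 38 of 354 other genes (10.7%) were more than 2-fold lower and 4 more than 2-fold higher in KO, with a median of -0.25. Adding 1 FPKM in place of 0.1 left 19 lower and 1 higher. Between H2-D1 and H2-Q10 there were 2 other measured genes with a symbol, Gm8741 (4.57 in WT and 3.22 in KO) and Gm11131 (0.387 and 0.219).

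H2-Ke2 and H2-Ke6 carry the name of the cluster by position and encode no MHC chain. H2-Ke2, a prefoldin subunit, stood at 26.3 FPKM in WT and 21.9 in KO, and H2-Ke6, a hydroxysteroid dehydrogenase, had 71.0 and 74.6 in a joint row with the zinc transporter gene Slc39a7.

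Class I genes are copies of one another, so reads of one gene can fit another. Windows of 100 bases, the read length, were cut from all annotated transcripts of a gene, and exact copies were looked up in those of other genes. H2-Q7 gave 4667 windows, 591 of them shared, while its transcript with most exons has 1418 bases. The share over that transcript alone can therefore be higher than the percentages given here, and near matches were not counted. Of the 24 measured H2- genes, 9 shared 1% of their windows or less, and 9 shared more than 10%. H2-Q7 shared 12.7%, most often with H2-Q10 (5.79%) and H2-Q6 (3.75%). For H2-Q8 the share was also 12.7% and for H2-Q6 10.2%. H2-Gs10 shared 12.5%, mostly with Gm11131 (10.5%). The share was 7.79% for H2-Q10, 3.45% for H2-D1 and 1.15% for H2-K1. H2-T22 (31.6%) and H2-T10 (28.1%) had higher shares than the Qa genes, with log2 KO/WT of -0.19 and -0.42. Their most frequent partners carry no H2- symbol, RP24-443D19.4 (24.2%) for H2-T22 and BC023719 (22.5%) for H2-T10. How shared windows bear on the ratios was not tested. The class II genes H2-Aa, H2-Ab1 and H2-Eb1 shared none. How the authors' tools divided reads that fit several genes is not given in the sources used here, so the split of FPKM among the Qa genes is uncertain. The windows come from the C57BL/6 reference, and differences of the sequenced mice from it were not tested.

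**Figure D4:**
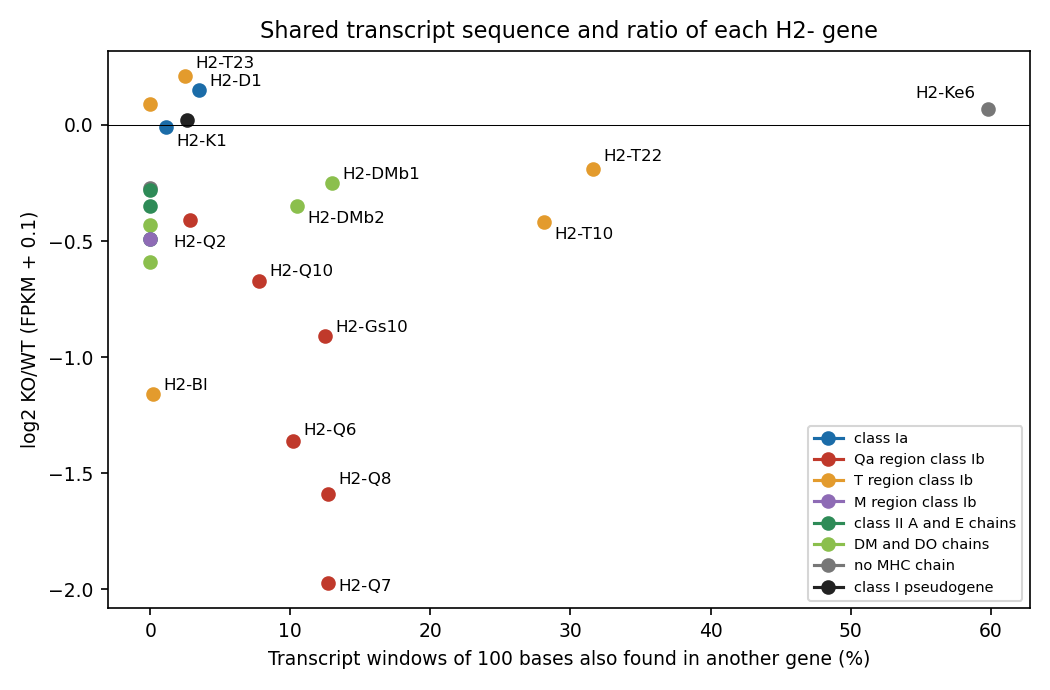
log2 KO/WT on FPKM + 0.1 against the percentage of 100-base transcript windows that also occur in another annotated gene, for the 24 measured H2- genes. H2-Q7 and H2-Q8 share 12.7% of their windows and lie lowest. H2-T22 shares 31.6%, mostly with genes without an H2- symbol, and has -0.19.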

How the data were processed

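RNA of 1 WT and 1 KO liver library was aligned by the authors to mm9 (NCBI37) with TopHat 2.0.0, assembled with Cufflinks 1.3.0 and quantified with Cuffdiff (versions from the submitters' processing notes). The labels name paired-end and the methods single-end reads of 100 bases. The FPKM deposited by the authors is 1 value per locus and library. Their fold changes, test statistics, p-values and q-values were not used. Of 38016 rows, 21 with failed estimates (HIDATA) were left out, joint rows gave their value to each symbol, and rows of a symbol were summed. To each FPKM 0.1 was added before the log2 ratio, so ratios of weakly expressed genes are understated, and genes averaging below 0.1 FPKM were left out. Counts past a fold and medians stand beside those of all genes.

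Fragments were estimated from the depth and the annotated transcript with most exons (GENCODE vM1, NCBIM37, the same build). No interval was given at 3 fragments or fewer. Ratios and depth estimates were tested on simulated data. The tools were scipy 1.17.1, numpy 2.4.6, Biopython 1.88, pandas 2.3.3 and matplotlib 3.10.9 under Python 3.11.15.

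The rule for the genes uses names and positions, but this set of genes and the lists were chosen with earlier results of these data known. Named were all H2- genes averaging 1 FPKM or more, the 3 most abundant genes of each pathway list and those past 2-fold, and the 3 largest folds each way among neighbours at 1 FPKM or more in WT and in KO. The result of 1 gene under this rule is not reported here. Alternatives covered the pseudocount, the filter, the scaling, the rows of a symbol and the length of the windows.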

Additional observations from a re-analysis of the deposited data

How the results depend on the processing

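The H2- genes averaging 1 FPKM or more kept their direction under every alternative tried for pseudocount, scaling and rows, except H2-K1 and H2-T22, which lay between -0.01 and 0.22 and between -0.19 and 0.05 on the log2 KO/WT scale. H2-Q7 ranged from -1.98 to -1.73, H2-Q8 from -1.66 to -1.14, H2-Q6 from -1.37 to -1.12, H2-Gs10 from -0.92 to -0.67 and H2-Q10 from -0.67 to -0.44. With a fold above 1.5 in place of 2, 7 H2- genes were lower in KO. Centring on the median of expressed genes, which was -0.24, moved the median of the 24 H2- genes to -0.14, that of class II, DM and DO genes to -0.12, that of the other genes between the outermost H2- genes to -0.04, that within 10 Mb of Ppard to -0.01, that of the regulators to -0.04 and that of class II processing to -0.28. Equal upper quartiles gave -0.24 for class II, DM and DO, -0.08 for the interval, -0.06 within 10 Mb and -0.08 for the regulators. A pseudocount of 1 FPKM gave -0.20 for class II, DM and DO and -0.17 within 10 Mb. Without a filter on low FPKM the interval had -0.09 and the genes within 10 Mb 0.00. With windows of 50 bases, 14 H2- genes shared more than 10%. H2-Ke6 has no value without joint rows. No paired analysis was possible because the labels carry no replicate number or other pairing, and with 1 library of each genotype none could be left out. Low genes such as H2-Bl and H2-Ob are limited by their few fragments.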
